A study of Arabidopsis thaliana with 6 samples.

Results

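The 10 genes described here encode MADS-domain transcription factors of the flower of Arabidopsis thaliana: AP1, CAL, FUL, AP3, PI, AG, SEP1, SEP2, SEP3 and SEP4. They were chosen by name, by their locus identifiers, after levels of several of them had been seen to differ between these plants, and they make up 10 of the 32627 loci and 15 of the 37118 features on the array. A feature is a set of probes for a transcript. RNA came from whole plants of ecotype Columbia at an age of 3 weeks. The plants stood on GM agar at 22 °C, with kanamycin at 30 mg/l and 16 h light a day. The 3 MYBPAR lines carried 35S::VvMYBPAR, a MYB factor of grapevine behind the 35S promoter of cauliflower mosaic virus, which is active in most plant tissues. The 3 empty vector lines were transformed with the vector alone, so plants of all 6 lines were transformants grown under the same selection. MYBPAR replicates 1, 2 and 3 are lines PAR18-2, PAR9-2 and PAR36-4, and empty vector replicates 1, 2 and 3 are lines Cont1-1, Cont2-3 and Cont5-1. Each line gave 1 RNA sample, from its own culture per the labels, on 1 single-colour array, and the number of plants in a sample is not given in the sources used here.

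In the textbook model of the flower, AP1 and its close relatives CAL and FUL turn the shoot meristem into floral meristems, and AP1 then gives sepals and petals their identity. AP3 and PI act as a pair in petals and stamens, and AG acts in stamens and carpels and stops growth of the floral meristem. The SEP proteins join all of these in complexes. Most of these genes are transcribed mainly in inflorescences and floral buds, so in RNA of whole plants their level depends on how many buds a sample held. In such bulk samples fewer bud cells and less RNA per bud cell cannot be told apart. FUL is also transcribed in stems and cauline leaves, and SEP4 in green organs outside the flower.

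All values below are log2 of the authors' RMA intensities, which were normalized between arrays, and differences are MYBPAR minus empty vector means with 95% intervals of the limma fit across all features. Median intensities were 859.1 to 887 on the 6 arrays, and Pearson's r across features, which are not independent replicates, was 0.984 to 0.993 between arrays of different groups. Mean log2 values had 2 peaks over the features, and the valley separating them lay at 7.11; features below it are called low mode here, and their signal may be background. Leaf and root markers of the plants were present, with 6 of 6 leaf and 10 of 11 root markers above that minimum. Arrays also differed in plant state: the clock gene CCA1 stood at 7.54 in MYBPAR replicate 2 and between 11.62 and 13.50 elsewhere, and the heat shock regulator gene HSFA2 at 12.70 in empty vector replicate 1 and between 7.71 and 9.94 elsewhere. These genes were chosen after their values were seen, and their part in the results below was not tested.

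For most of the floral MADS genes the 3 empty vector lines lay farther apart than the means of the groups did. In the fit across all features 0 of the 10 genes passed the threshold (adjusted p of 0.05, limma with Benjamini-Hochberg adjustment), where 0.00539% of all features did. At an unadjusted p under 0.05 it was FUL and SEP1, 2 of 10, against 4.32% of all features. The groups did not overlap for the same 2 of 10 genes, against 9.99% of all features, and both were higher in MYBPAR (6.32% of features were higher without overlap and 3.67% lower). Without MYBPAR replicate 1 it was 6 of 10, against 26.6% of features, and without empty vector replicate 2 it was also 6, against 19.2%. With any other single sample left out the count stayed at 2. Those 2 samples were singled out with the values in view. The median difference of the 10 genes was 0.70 and 9 of 10 were above 0, where the median of all features was 0.02 and 53.7% were above 0. Because the genes were chosen with these arrays in view, those counts describe the genes and support nothing further.

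AP1 (AT1G69120), which specifies floral meristems, sepals and petals, had log2 values of 10.80, 11.76 and 11.60 in MYBPAR replicates 1, 2 and 3. In empty vector replicates 1, 2 and 3 it had 9.97, 10.91 and 10.87. The lowest array was empty vector replicate 1, and MYBPAR replicate 1 lay below the higher pair of controls, so the groups overlapped. The means were 11.39 ± 0.51 and 10.58 ± 0.53 (SD, n = 3), a difference of 0.80 (interval -0.05 to 1.65), and it was 0.49 without empty vector replicate 1.

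CAL (AT1G26310), the closest relative of AP1 and partly redundant with it in floral meristems, was high in a single line. It stood at 10.10 in empty vector replicate 2 and at 4.62 and 5.27 in empty vector replicates 1 and 3. The MYBPAR lines had 5.80, 6.15 and 6.36, so the 5 other lines all lay in the low mode. Set against the minimum between the modes, CAL was at least 7.96-fold higher in that line than in any other. The bound, which was picked with the values in view, compares single samples, with no replicate behind the high value. The group difference of -0.56 (interval -3.92 to 2.80) turned to 1.16 without that line and was -1.59 without empty vector replicate 1.

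The gap of CAL to the other lines was the widest on the array of empty vector replicate 2. Counted over all 37118 features, 2 features of the array exceeded every other array by more than 2 log2 units, and CAL led them with a gap of 3.75 while the next had 2.09. The other 5 arrays had between 4 and 22 such features each. AP1, on the other hand, was at 10.91 in this line, within the range of the other lines. The 8 loci measured on either side of CAL on chromosome 1, 4 to the left and 4 to the right by the RefSeq gene order, lay between -0.40 and 0.98 from the median of the other lines. The highest of them, AT1G26350, was in the low mode on all 6 arrays. CAL was read by 1 feature of 4 probes, so no second feature was at hand to compare.

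**Figure D1:**
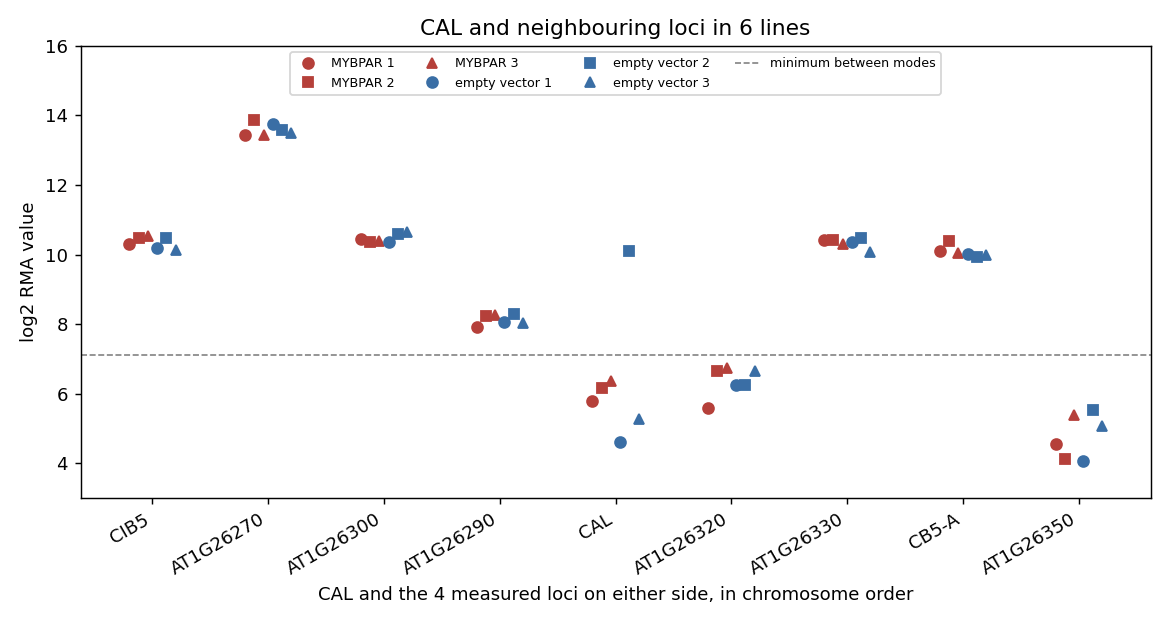
Log2 RMA values (y axis) of CAL and of the 4 measured loci on either side of it (x axis, chromosome order) in 6 lines, 1 point per line. CAL stands at 10.10 in empty vector replicate 2 and below the dashed minimum between the modes (7.11) in the other 5 lines, while the neighbouring loci show no such gap.

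FUL (AT5G60910), which acts beside AP1 and CAL in meristems and later in carpels and fruits, was read by 2 features. Its brighter feature had 10.72, 11.61 and 10.83 in MYBPAR replicates 1, 2 and 3 and 10.07, 10.27 and 10.54 in empty vector replicates 1, 2 and 3. The MYBPAR values all lay above the controls, with means of 11.05 ± 0.48 and 10.29 ± 0.24 (SD, n = 3) and a difference of 0.76 (interval 0.12 to 1.39). The dimmer feature gave 0.54 (interval 0.02 to 1.06), also with groups that did not overlap. MYBPAR replicate 2 was the highest in both, and without it the difference of the brighter feature was 0.48. Empty vector replicate 2, the highest control for 8 of the 10 genes, was not the highest for FUL, nor for SEP4.

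AP3 (AT3G54340) and PI (AT5G20240), the pair that specifies petals and stamens, followed another order of the lines. AP3 had 9.44, 10.05 and 10.21 in MYBPAR replicates 1, 2 and 3 and 8.04, 10.04 and 8.75 in empty vector replicates 1, 2 and 3. PI had 7.59, 8.22 and 8.72 against 6.85, 8.56 and 7.70 in the same order. For both, empty vector replicate 1 was lowest and empty vector replicate 2 lay above MYBPAR replicates 1 (AP3) or 1 and 2 (PI), so the groups overlapped. AP3 differed by 0.95 (interval -0.28 to 2.19) and PI by 0.47 (interval -0.69 to 1.64). Without empty vector replicate 1 the difference of PI was 0.05, and that of AP3 was 0.50. Without empty vector replicate 2 they were 0.90 for PI and 1.504 for AP3. That of PI was also 0.77 without MYBPAR replicate 1 and 0.20 without MYBPAR replicate 3.

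AG (AT4G18960), needed for stamens and carpels, had the widest span among the genes that lie above the minimum between the modes. Its values were 7.84, 8.84 and 8.99 in MYBPAR replicates 1, 2 and 3 and 6.79, 9.04 and 7.80 in empty vector replicates 1, 2 and 3. Here empty vector replicate 2 was the highest array of all 6, and the range of 2.25 log2 units lay within the control group. The difference was 0.68 (interval -0.77 to 2.13). It was 0.14 without empty vector replicate 1, 1.26 without empty vector replicate 2 and 1.04 without MYBPAR replicate 1.

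The SEP genes, whose proteins bridge the other factors, did not share one order of the lines: empty vector replicate 1 was lowest for all of them, but SEP4 had another highest control than SEP1 to SEP3. SEP1 (AT5G15800) had 10.89, 11.44 and 11.12 in MYBPAR replicates 1, 2 and 3 and 9.96, 10.71 and 10.56 in empty vector replicates 1, 2 and 3. This feature did not overlap between the groups, with means of 11.15 ± 0.28 and 10.41 ± 0.40 (SD, n = 3) and a difference of 0.74 (interval 0.16 to 1.32). A second SEP1 feature did overlap, with a difference of 0.49 (interval -0.18 to 1.17), so the non-overlap of SEP1 rests on which feature is read.

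SEP2 (AT3G02310), largely redundant with SEP1 and SEP3 in organ identity, had 9.65, 10.30 and 10.37 in MYBPAR replicates 1, 2 and 3 against 8.73, 9.93 and 9.47. SEP3 (AT1G24260) had 10.14, 11.05 and 11.41 against 9.53, 10.92 and 10.22. In both, empty vector replicate 1 was lowest and MYBPAR replicate 3 highest, and the groups overlapped. SEP2 differed by 0.73 (interval -0.11 to 1.57) and SEP3 by 0.64 (interval -0.45 to 1.73). Without empty vector replicate 1 these were 0.41 and 0.29. With MYBPAR replicate 1 left out SEP3 had 1.00, and with empty vector replicate 2 left out it had 0.99. A second SEP3 feature lay between 3.89 and 4.55 on all arrays, in the low mode, and did not follow the first.

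SEP4 (AT2G03710) showed little of the spread between lines. It had 11.23, 11.47 and 10.97 in MYBPAR replicates 1, 2 and 3 and 10.91, 11.15 and 11.60 in empty vector replicates 1, 2 and 3. Its range of 0.69 was the smallest of the 10 genes, and here empty vector replicate 3 was highest. The difference was 0.00 (interval -0.52 to 0.53), and the other 2 features of SEP4 gave -0.07 and 0.01. The 3 features had the same lowest and the same highest array.

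**Figure D2:**
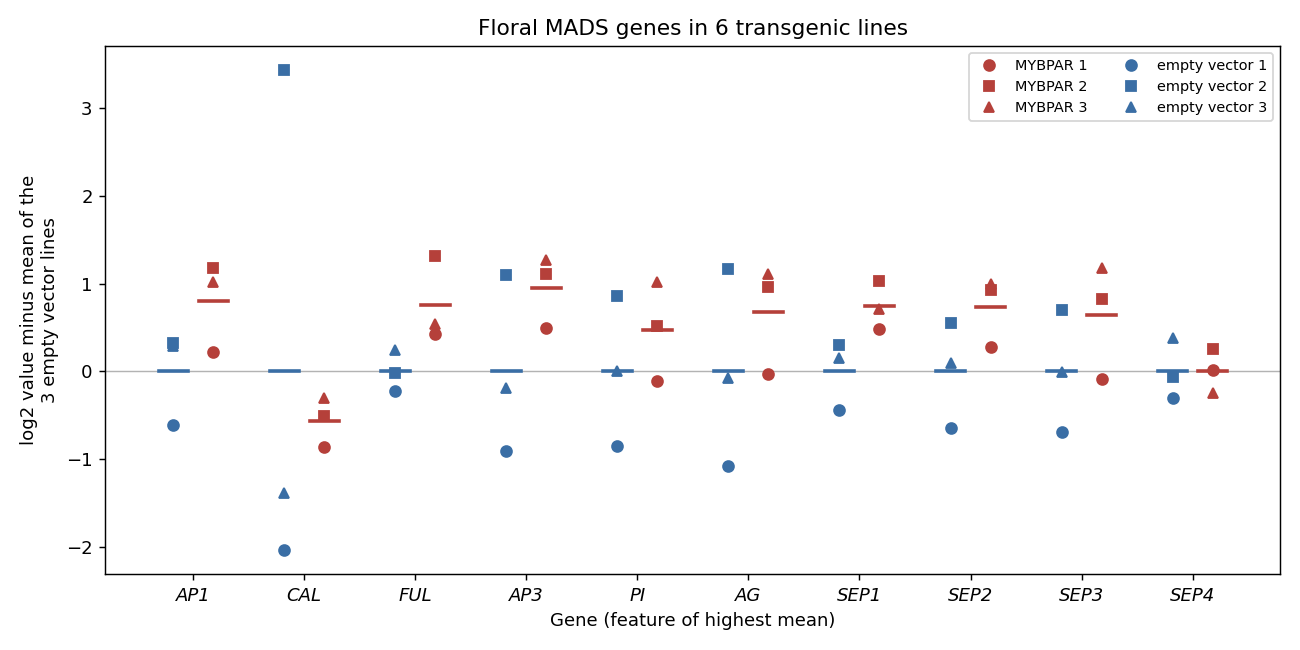
Log2 value minus the mean of the 3 empty vector lines (y axis) for the 10 floral MADS genes (x axis), with 1 point per line and short bars at the group means. Empty vector replicate 1 is the lowest of the 6 points for every gene, CAL is high in empty vector replicate 2 at 10.10 on the log2 scale, and SEP4 spans 0.69.

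Empty vector replicate 1 was the lowest of the 6 arrays for all 10 genes. Of the 9 genes above the minimum between the modes it was lowest for 9, where it was lowest for 14.7% of all features above that minimum. Among the controls, empty vector replicate 2 was the highest for 7 of these 9, against 26.1% of the features. The range over the 6 lines exceeded 1 log2 unit for 8 of the 9, against 13% of the features, and its median was 1.79 against 0.44. The genes were chosen after levels of several of them had been seen to differ between these plants. These counts and ranges therefore describe the genes and support nothing further. HSFA2 was highest in the array that was lowest for the floral genes, and its part in these values was not tested.

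The mean of all 10 genes, relative to the empty vector mean, was -0.78, 0.83 and -0.05 in empty vector replicates 1, 2 and 3. It was 0.08, 0.76 and 0.73 in MYBPAR replicates 1, 2 and 3. With CAL left out, a setting chosen with the data in view, empty vector replicate 2 stood at 0.55 and MYBPAR replicates 2 and 3 led with 0.90 and 0.84. The span of the mean over the lines was 1.62 with CAL and 1.54 without it. It was 0.89 without empty vector replicate 1, so that line sets much of the span.

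The mean of AP3, PI and AG did not rank the lines as AP1 alone did. The mean of AP3, PI and AG was 1.04 in empty vector replicate 2, close to the 1.13 of MYBPAR replicate 3, while AP1 was 0.33 in the former and 1.01 in the latter. The mean of AP3, PI and AG minus AP1 was 0.71 in empty vector replicate 2 and between -0.38 and 0.12 in the other 5 lines. This split by role was chosen after the values were seen. Distances between profiles, as the root mean square difference of the centred log2 values over the 6 lines, did not follow the roles throughout. The smallest was 0.15, between PI and SEP3, followed by 0.16 for AP1 and SEP2. AP3 lay 0.21 from AG and 0.30 from PI, while AP1 lay 0.19 from SEP1, 0.27 from SEP3 and 0.44 from AG. SEP1 lay 0.52 from AG and 0.22 from FUL. CAL was at least 1.32 from every other gene.

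**Figure D3:**
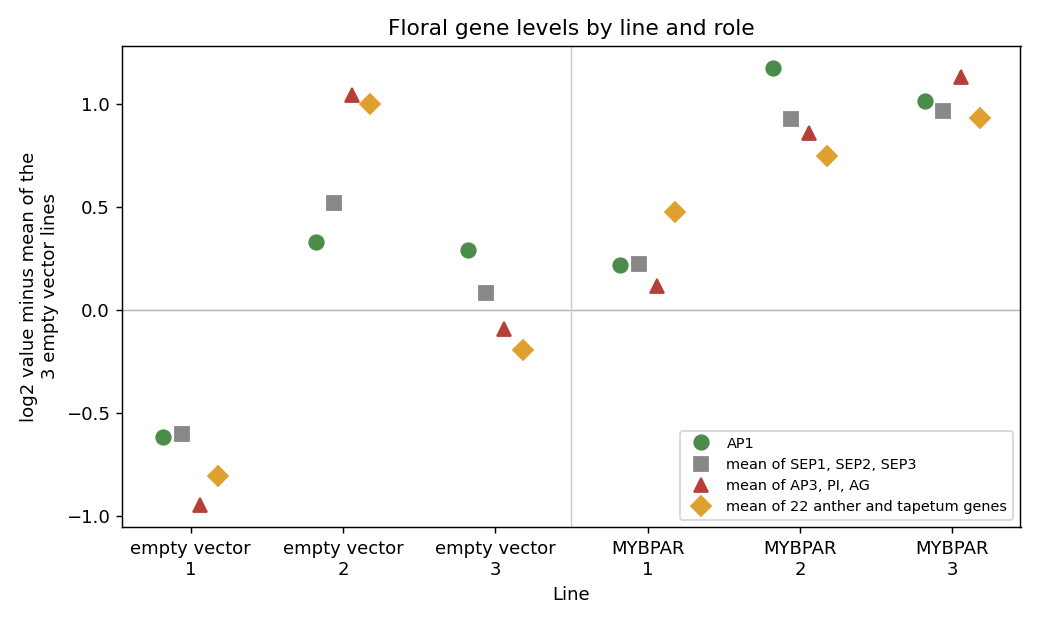
Mean log2 value minus the mean of the 3 empty vector lines (y axis) in each of the 6 lines (x axis) for AP1, for SEP1 to SEP3, for AP3, PI and AG, and for 22 anther and tapetum genes, 1 point per set and line. In empty vector replicate 2 the AP3, PI and AG mean (1.04) and the anther mean (1.00) stand above AP1 (0.33).

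Genes that act before the floral MADS genes mostly showed less spread between the lines. Above the minimum between the modes their median range was 0.70, against 1.79 for the floral MADS genes and 0.44 for all such features. The range exceeded 1 log2 unit for 3 of these 13 genes, against 13% of all such features. That of FT, 2.79, was wider than for any floral MADS gene but CAL. Among 17 flowering time and meristem identity genes, 0 passed the threshold in either direction, 4 had an unadjusted p under 0.05 (4.32% of all features did), and the median difference was 0.17. The smallest of these p-values belonged to LMI1, a target of LFY named here after its values were seen, which lay in the low mode with a difference of 0.59 (interval 0.28 to 0.90) and no overlap. LFY, the meristem identity factor that activates AP1, had 7.46, 8.26 and 8.46 in MYBPAR replicates 1, 2 and 3 and 7.55, 8.34 and 8.05 in empty vector replicates 1, 2 and 3. Its lowest array was MYBPAR replicate 1, with empty vector replicate 1 the lowest control, and its difference was 0.08 (interval -0.69 to 0.85). UFO, the partner of LFY in switching on AP3, lay in the low mode with a difference of 0.57 (interval 0.15 to 1.00) and no overlap. UFO, LMI1 and TSF, all in the low mode, were lowest in empty vector replicate 1. Of the 13 genes of this list above the minimum between the modes, that array was lowest for 0, against 14.7% of all such features.

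FT, the mobile flowering signal made in leaves, was highest in MYBPAR replicate 2, at 9.11, which is the line with the low CCA1, and lowest in empty vector replicate 2, at 6.33. The part of the clock state in these values was not tested. FD, the partner of FT in the meristem, differed by 0.38 (interval 0.03 to 0.73) with groups that did not overlap. The MADS genes upstream of the flower differed little: SOC1 by -0.16 (interval -0.51 to 0.19), AGL24 by 0.35 (interval -0.15 to 0.84) and the repressor SVP by -0.02 (interval -0.29 to 0.25). The repressor FLC lay in the low mode, with a difference of -0.37 (interval -0.85 to 0.10). TFL1, which keeps shoot meristems from becoming flowers, differed by 0.08 (interval -0.25 to 0.42) and SPL3, a promoter of flowering, by 0.17 (interval -0.28 to 0.61).

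Among 20 other MADS genes of the same type, 0 passed the threshold and 1 had an unadjusted p under 0.05 (4.32% of all features did). The median difference was 0.12, and 12 of 20 were above 0, where 53.7% of all features were. Of the 10 genes above the minimum between the modes, empty vector replicate 1 was lowest for 0, against 14.7% of all such features. Their median range was 0.455, against 0.44. AGL6, a close relative of the SEP genes, had 7.19, 7.69 and 7.71 in MYBPAR replicates 1, 2 and 3 against 6.07, 7.16 and 6.66 in empty vector replicates 1, 2 and 3. Its groups did not overlap (9.99% of all features did not), with a difference of 0.90 (interval 0.18 to 1.63). Its mean over all lines lay just below the minimum between the modes. SHP1 and SHP2, carpel and fruit genes related to AG, differed by 0.56 (interval -0.36 to 1.49) and 0.32 (interval -0.41 to 1.05), with SHP2 in the low mode. The ovule gene STK lay in the low mode and differed by 0.64 (interval -0.47 to 1.76).

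Targets and partners of the floral MADS factors gave a mixed picture. Among 28 genes of floral organ growth, 0 passed the threshold, 3 had an unadjusted p under 0.05 (4.32% of all features did), and the median difference was 0.13. The smallest of these p-values belonged to HEC1, a carpel gene named here after its values were seen, with a difference of -0.68 (interval -1.13 to -0.22) and no overlap. Of the 17 genes above the minimum between the modes, empty vector replicate 1 was lowest for 2, against 14.7% of all features above it. The median range of the 17 was 0.475, against 0.44 of all such features. CRC, a carpel and nectary gene controlled by AG, was 1 of these 2. It had 8.81, 9.07 and 9.25 against 7.75, 9.24 and 8.73, with the low value in empty vector replicate 1 as for AG. SPL, which AG activates at the start of sporogenesis, lay in the low mode by its mean and stood at 5.36 in empty vector replicate 1 and between 6.18 and 7.40 elsewhere. PTL, a petal and sepal boundary gene, differed by 0.45 (interval 0.15 to 0.76) with no overlap.

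NAP, a NAC gene first described as a target of AP3 and PI and known for leaf senescence, had the reverse sign. Its values were 12.38, 11.24 and 12.05 in MYBPAR replicates 1, 2 and 3 against 12.45, 12.39 and 12.79, with no overlap and a difference of -0.65 (interval -1.38 to 0.08). AP2, transcribed widely in the plant, differed by 0.13 (interval -0.16 to 0.43). SUP, KNU and RBE, transcribed in few cells of the flower, lay in the low mode, with differences of 0.32, 0.08 and -0.12.

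Anther and tapetum genes, which act after AP3, PI and AG in stamens, had the widest spread of the 7 lists, with a median range of 2.47 over the lines for the genes above the minimum between the modes. Among 22 genes 0 passed the threshold and 0 had an unadjusted p under 0.05 (4.32% of all features did). The median difference was 0.89. This list was chosen with earlier results of these data known, so its counts are a description. Empty vector replicate 1 was lowest for 14 of the 16 genes above the minimum between the modes, against 14.7% of all features above it, and empty vector replicate 2 was the highest control for 15 of 16, against 26.1%. MS2, a fatty acyl reductase gene of the pollen wall, had 10.91, 11.42 and 11.01 in MYBPAR replicates 1, 2 and 3 and 8.34, 12.02 and 8.77 in empty vector replicates 1, 2 and 3. The control group alone thus held both the lowest and the highest of the 6 values.

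In the 3 genes that follow the controls stood in the same order as for MS2. The tapetum regulator AMS had 8.48, 10.86 and 9.26 in empty vector replicates 1, 2 and 3 against 10.07 to 10.81 in the MYBPAR lines. ATA7, a tapetum gene, had 5.63, 9.74 and 7.24 against 7.82 to 9.18. AT5G07230 had 6.18, 9.35 and 6.71 against 8.42 to 9.06. Of the 22 genes not all did so: TPD1, a signal for tapetum fate named here after its values were seen, had 12.51, 12.48 and 12.59 in empty vector replicates 1, 2 and 3. The tapetum regulators MS1 and TDF1 lay in the low mode by their means, with differences of 0.45 (interval -1.08 to 1.98) and 0.50 (interval -0.24 to 1.24). In empty vector replicates 1, 2 and 3 MS1 had 4.75, 7.30 and 5.54, in the order of MS2. TDF1 had 4.35, 4.96 and 5.52 there, in another order.

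**Figure D4:**
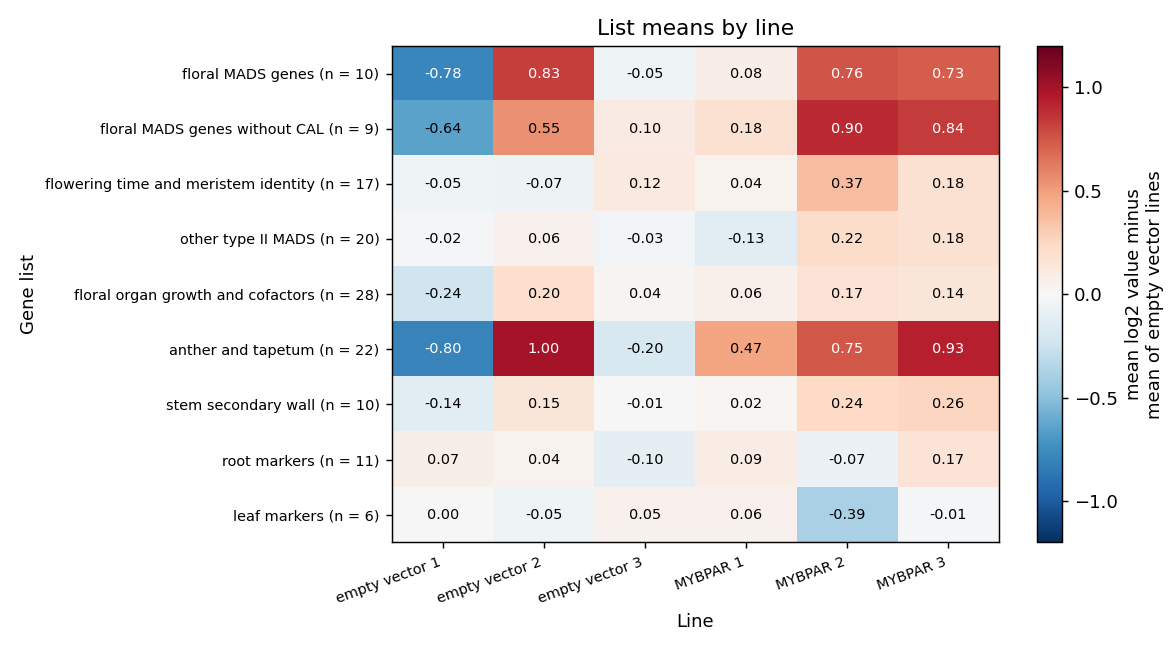
Mean log2 value minus the mean of the 3 empty vector lines (colour and printed value) for the floral MADS genes and 7 lists of other genes (y axis, number of genes in brackets) in each line (x axis). The floral MADS and anther rows run from -0.78 and -0.80 in empty vector replicate 1 to 0.83 and 1.00 in empty vector replicate 2, while the root marker row stays between -0.10 and 0.17.

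The list means of markers of other organs spread less between the lines than the mean of the floral MADS genes. The mean of 10 stem secondary wall genes spanned 0.40 log2 units over the 6 lines and was lowest, at -0.14, in empty vector replicate 1. The mean of 11 root markers spanned 0.27, from -0.10 to 0.17, but single genes varied more and in both directions. CASP2 differed by -0.49 with a range of 1.22, and WOX5, in the low mode, by 0.48. The stem gene NST1, in the low mode, ranged over 2.09. For genes above the minimum between the modes the median range was 0.33 (stem), 0.67 (root) and 0.21 (leaf), against 0.44 of all such features. The mean of 6 leaf markers spanned 0.44, with the low value of -0.39 in MYBPAR replicate 2. That value came from LHCB2.1, a light-harvesting protein gene, which had 10.77 there and 13.42 to 13.64 elsewhere, and RBCS1A, CA1 and RCA were not low in that line. None of these genes passed the threshold. An unadjusted p under 0.05 was found for 1 of 10 stem, 1 of 11 root and 0 of 6 leaf genes (4.32% of all features had one). The amount of each organ in a sample was not recorded in the labels.

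The 12 features nearest to the mean profile of the 10 floral MADS genes lay within a root mean square distance of 0.17 log2 units over the 6 lines, where the median of 24747 features above the minimum between the modes was 0.60. The nearest was AT3G11000 at 0.08, with -1.08 in empty vector replicate 1 and 0.61 in MYBPAR replicate 2 around its own mean. KCR2, a ketoacyl reductase gene, lay at 0.09, the magnesium transporter gene MGT5 at 0.13 and the Argonaute gene AGO9, known from ovules and anthers, at 0.16. CRC, at 0.17, was the 1 gene of the lists above among the 12. The others were AT1G75050, ENDO3, ZFP11, AT1G06170, AT4G27980, AT5G59845 and AT3G15280. Of these 12, 6 stayed among the nearest when CAL was left out of the mean, and 8 when SEP4 was. PI at 0.17, SEP2 at 0.18 and SEP3 at 0.20 were the floral MADS genes nearest to the mean, and CAL at 1.42 the farthest.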

How the data were processed

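Total RNA of whole plants was read on single-colour (Cy3) NimbleGen arrays. Each array's deposited file holds the authors' RMA intensity, unlogged, for every feature (1 to 4 probes), as its header states. RMA normalizes between arrays. The version, background model and probe annotation were not given in the sources used here. A series-wide table of deposited log2 values matched the logged intensities within 1.66e-06. By the array names all 6 arrays share 1 slide, so there was no slide to block.

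Log2 values were fitted with limma 3.58.1 in R 4.3.3 (eBayes, no trend, not robust) over all 6 arrays and 37118 features, with no filter, and p-values were adjusted by Benjamini-Hochberg. The fit was tested on simulated data. A gene is represented by its feature of highest mean. The arrays carry no depth, and 3 samples per group limit the precision.

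The 10 genes, the 7 lists (114 genes) and the tests were chosen with earlier results of these data known. The named genes are all 10 floral MADS genes, a fixed part of 4 lists, organ markers and the 12 nearest features by profile. Further genes were named after their values were seen, among them CCA1, HSFA2, LMI1, HEC1, TPD1, MYB21, MYB24 and ANR1. Names come from RefSeq TAIR10.1, which held all 10 loci and lists FUL as AGL8; no coordinates are given because the build of the array is not given in the sources used here.

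Alternatives were further normalizations, other variance models, a filter on dim features, an offset of 32, weighted arrays, a block for replicate number, locus means and leaving out each sample. The column of standard errors was not used.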

Additional observations from a re-analysis of the deposited data

How the results depend on the processing

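No floral MADS gene passed the threshold under any alternative. The number of features past it over the whole array was 2, and it was 0 with no moderation, 0 with the replicate block (paired by number) and 0 to 3 when 1 sample was left out (3 without MYBPAR replicate 1). Same-numbered samples deviated together at r of 0.295, -0.058 and 0.239 across features, so the numbers were not taken as pairs, and not every sample correlated best with its own number. The median difference of the 10 genes lay between 0.52 (lowest feature of a locus) and 0.73 (CAL left out), both chosen with the data in view, under the other settings and between 0.35 (without empty vector replicate 1) and 0.98 (without empty vector replicate 2) when 1 sample was left out. The span of their mean was 0.89 without empty vector replicate 1 and at most 1.64. The number of genes whose groups do not overlap was 2 with all samples and 2 to 6 when 1 sample was left out: it was 6 without MYBPAR replicate 1, where 26.6% of all features do not overlap, and 6 without empty vector replicate 2, where 19.2% do not. With CAL left out of the mean, 6 of the 12 nearest features were shared. Array weights moved the difference of CAL to -1.63. SEP4 ranged from -0.15 to 0.20 when 1 sample was left out. The arrays carry no detection calls, so signals in the low mode give bounds only.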

Other observations

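MYB21, a regulator of late stamen and petal growth, stood at 6.98 in MYBPAR replicate 3 and between 2.89 and 3.64 on the other 5 arrays, all below the minimum between the modes. MYB24, its close relative, lay in the low mode by its mean. It had 7.71 in MYBPAR replicate 3 and 7.16 in empty vector replicate 3, against 5.04 to 5.87 in the other 4 lines. Empty vector replicate 2, high for AP3, PI, AG and most anther genes, was thus not high for this pair. Both were named after their values were seen.

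Root-expressed relatives of the floral MADS genes had values of both signs. ANR1, a nitrate-regulated gene, had 8.28, 6.91 and 7.68 in MYBPAR replicates 1, 2 and 3 against 8.18, 8.48 and 8.72 in empty vector replicates 1, 2 and 3, a log2 difference of -0.84 (interval -1.69 to 0.01). AGL17, in the low mode by its mean, and AGL21 had -0.83 and -0.42, while AGL12 and AGL14 had 0.11 and 0.13. None of these 5 passed the threshold in limma, and they too were named after their values were seen.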
